A study of Mus musculus with 8 samples.

Results

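The genes that carry phosphate across kidney tubule cells, and those through which klotho acts on them, were examined in whole kidneys of control and SIK mutant mice. The set held 10 of the 55401 genes listed for each kidney. They were the apical cotransporters *Slc34a1*, *Slc34a3* and *Slc34a2*, the ubiquitous cotransporters *Slc20a1* and *Slc20a2*, the exporter *Xpr1*, the scaffold genes *Slc9a3r1* and *Pdzk1*, the co-receptor *Kl* and the receptor *Fgfr1*. Members were found by their Ensembl identifiers, matched without the version to GENCODE M21 symbols on GRCm38. All 10 were present and all 10 passed the filter on low counts.

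RNA-Seq had been performed on kidneys of 4 control and 4 mutant mice. In the labels, all 8 mice carry salt-inducible kinase genes made removable by Cre (floxed), written SIK1f/f;SIK2f/f,SIK3f/f, and the mutants carry Six2-Cre in addition. Six2-Cre is active in nephron progenitors, so that the tubule cells derived from them recombine, whereas blood, stromal and vascular cells of the same kidney do not. The study's text describes surviving kidney mutants with a single floxed *Sik1* allele, and names Cre-negative littermates as controls. The group is therefore called SIK mutant here. Age, sex, litter and batch of the sequenced mice are not stated in the labels.

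Phosphate filtered at the glomerulus is taken back mainly in the proximal tubule, where sodium-driven cotransporters of the SLC34 family sit in the brush border. PTH, which inhibits SIKs in its target cells, and FGF23, which acts through an FGF receptor joined to klotho, both reduce the amount of these cotransporters in the membrane, largely by their removal into the cell. Scaffold proteins with PDZ domains hold the cotransporters at the brush border, and PTH acts in part by loosening that hold. Transcript levels do not report on that removal, and the proteins were not measured here.

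Depth was even, at 10179648 to 10925100 expected counts per kidney, and 3 counts, the smallest level taken as detectable, corresponded to 0.263 to 0.304 CPM (counts relative to the library total after TMM scaling). Of the targeted genes, *Sik3* was at 58.6, 66.5, 65.7 and 61.0 CPM in controls 1 to 4 and at 41.4, 39.7, 43.1 and 33.7 CPM in mutants 1 to 4, with no overlap, whereas the groups overlapped for *Sik2*. *Sik1* was at 36.8 to 43.1 CPM in controls and at 43.4 to 54.1 CPM in mutants. Markers of proximal tubule, loop of Henle, distal tubule, collecting duct, podocytes and vessels were all present, as the label whole kidney requires. Controls 3 and 4 had at most 0.0875 CPM of the Y-linked *Ddx3y*, *Eif2s3y*, *Kdm5d* and *Uty* and had 260.5 and 297.8 CPM of *Xist*, which silences an X chromosome. The other 6 kidneys, 2 controls and 4 mutants, had Y-linked reads. No mutant resembled controls 3 and 4 in this way, so each gene was compared over the 8 kidneys and once more within the 6 that had such reads, called Y+ kidneys here.

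Some markers of several cell types also differed between the groups. The summed level of 7 adipocyte markers was 22.3 and 29.9 CPM in controls 1 and 2 and 165.6 to 261.9 CPM in mutants, but 219.4 CPM in control 3 and 67.1 CPM in control 4. All 7 were higher in mutants among the 6 Y+ kidneys without overlap, a pattern shared there by 1510 of the 14719 genes tested. At an edgeR FDR of 0.05, 5 of the 7 were called higher there, among 17 genes called higher in all. Log2 fold changes of the 7 there ran from 1.79 (*Fabp4*) to 9.05 (*Retn*). Over the 8 kidneys 0 of the 6 adipocyte markers tested were called. Of the 7, *Adipoq*, *Plin1*, *Cidec*, *Cfd*, *Lep* and *Retn* were at 0 in at least 1 kidney. The 3 S1 markers, from the first segment of the proximal tubule, summed to 800.3 to 916.6 CPM in the 4 controls and 557.3 to 676.5 CPM in the 4 mutants. The 8 markers of the whole proximal tubule overlapped between groups, at 9130 to 9597 CPM against 8140 to 9215 CPM. Within the Y+ kidneys the 3 principal-cell markers summed to 295.3 and 394.1 CPM in controls and 433.3 to 735.9 CPM in mutants, with *Aqp2* and *Aqp3* higher without overlap. Of 3 loop of Henle markers, *Slc12a1* and *Cldn16* were higher there without overlap, while *Umod* overlapped. The 3 summed to 2800 and 3212 CPM in those controls and 2853 to 4218 CPM in mutants, with overlap. Over the 8 kidneys *Trpm6* of the distal convoluted tubule (log2 fold change −0.72) and *Atp6v1g3* of intercalated cells (−0.29) were lower without overlap. That pattern was found in 2.39% of all tested genes. The other listed markers of these types overlapped. Of the distal list, *Slc12a3* and *Pvalb* were at −0.28 and −0.54 and *Calb1* at 0.13. Of the intercalated list, *Foxi1* was at −0.67 and *Slc4a1* at −0.13. Within the Y+ kidneys *Foxi1* was at −0.37 and *Slc4a1* at 0.26. The summed distal markers overlapped, at 1084 to 1681 CPM in controls and 960 to 1407 CPM in mutants, as did the summed intercalated markers. In bulk tissue, fewer cells of a type and less RNA per cell cannot be told apart.

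Levels were first compared per unit of transcript length, as TPM, the share of all transcripts that a gene contributes. *Slc34a1* stood far above the other genes in the set, at a mean of 2580 TPM over the 8 kidneys. By counts it ranked 13th or 14th among all genes in every kidney. *Pdzk1* followed at 457.9 TPM, *Slc9a3r1* at 164.2 TPM and *Kl* at 139.0 TPM. *Slc34a3* came next at 49.6 TPM, and *Slc20a2*, *Fgfr1*, *Xpr1* and *Slc20a1* lay close together at 14.3, 13.9, 12.6 and 8.72 TPM. *Slc34a2*, better known from lung and gut, was lowest at 1.35 TPM. Most neighbours in this order kept it in all 8 kidneys. The exceptions were *Slc9a3r1* above *Kl*, which held in 7 kidneys, *Fgfr1* above *Xpr1*, which held in 6, and *Slc20a2* above *Fgfr1*, which held in 3, so the last pair was not separated beyond its spread. Of the TPM of the 5 sodium-phosphate cotransporters, *Slc34a1* made up 97.1% ± 0.67 in controls and 97.3% ± 0.29 in mutants (SD, n = 4 each), and *Slc34a3* 2.12% ± 0.64 and 1.64% ± 0.19.

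**Figure D1:**
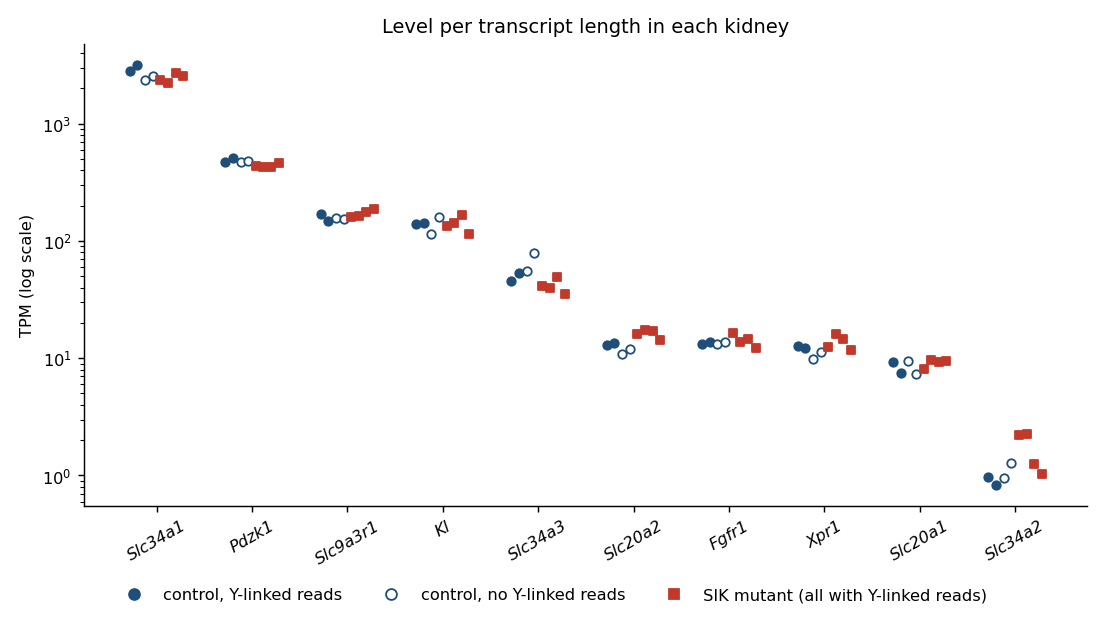
TPM of the 10 genes in each kidney on a log axis, ordered by their mean over the 8 kidneys, with controls as circles (open for those without Y-linked reads) and SIK mutants as squares. *Slc34a1* lies at 2231 to 3158 TPM in every kidney and *Slc34a2* at 0.83 to 2.27 TPM, and the other 8 genes lie between them.

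*Slc34a1* (ENSMUSG00000021490.11, chromosome 13, 55398187 to 55415592, plus strand, GRCm38) encodes Npt2a, the main brush-border phosphate cotransporter of the rodent kidney. Its level was 6321, 6850.0, 4145 and 4709 CPM in controls 1 to 4 and 4301, 3943, 4799 and 5141 CPM in mutants 1 to 4. Controls 1 and 2 were above every mutant, while controls 3 and 4 lay within the range of the mutants. The groups therefore overlapped, at 5506 ± 1286 CPM against 4546 ± 530 CPM (SD, n = 4 each). Over the 8 kidneys the log2 fold change was −0.28 (SE 0.177, 95% interval −0.67 to 0.12), with an edgeR p of 0.150 and an FDR of 0.844. It was −0.15 without control 2.

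Within the 6 Y+ kidneys *Slc34a1* was lower in all 4 mutants than in either control. Its log2 fold change was −0.52 (SE 0.133, 95% interval −0.83 to −0.22), a change of −30.5%, with an edgeR p of 0.00371 and an FDR of 0.241. With DESeq2 the same comparison passed the threshold, at an FDR of 0.00656, and so did DESeq2 over the 8 kidneys with a covariate for Y-linked expression, at 0.00580. That covariate was at 4.18 to 4.51 log2 CPM in the Y+ kidneys and at −4.51 and −3.72 in controls 3 and 4. The 2 fits are therefore largely the same comparison. DESeq2 called 0.442% of the 14719 genes tested as lower within the Y+ kidneys, and 0.489% of 14326 with the covariate. The share of all counts held by *Slc34a1* does not depend on TMM. It was 0.570% and 0.638% in controls 1 and 2, 0.436% and 0.492% in controls 3 and 4, and 0.412% to 0.491% in mutants. In TPM *Slc34a1* was at 2806 and 3158 in controls 1 and 2 and at 2231 to 2688 in mutants, without overlap. On both scales the gap within the Y+ kidneys was smaller in proportion than in TMM-scaled CPM. The summed adipocyte and principal-cell markers, and *Slc12a1* and *Cldn16* but not *Umod* of the loop of Henle, also separated the groups in the same 6 kidneys. Their part in this difference was not tested. Controls 3 and 4 differed from controls 1 and 2 in sex by *Xist* and the Y-linked genes, and any difference in litter or another condition cannot be told apart from it with 2 kidneys of each kind.

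Promoter sequence was examined because *Slc34a1*, *Slc34a3* and *Pdzk1* were lower together within the Y+ kidneys. RefSeq windows on GRCm38.p6, from 250 bases before to 50 bases after a start, were given for 8 of the 10 genes in 10 windows, and none for *Slc20a2* and *Fgfr1*. The letters searched on both strands were TGACGTCA, the full cAMP response element bound by CREB, its part TGACG, which the full element contains, and AGGTCA, a recognition unit of many nuclear receptors. TGACGTCA was found in 0 of the 10 windows against 1.79% of 32851 windows over all genes, TGACG in 4 against 20.81%, and AGGTCA in 5 against 16.26%. The 250 bases before the *Slc34a1* start held no match. *Pdzk1* had 2 windows. The 250 bases before its first start held 1 AGGTCA, in capitals below, 50 bases before that start, and the second window held TGACG on the opposite strand, 83 bases before its own start. Both stretches lie inside the annotated span of their gene, in front of the RefSeq start, and hold no annotated exon of it, but an exon of the antisense gene *4930442L01Rik* covers most of the *Pdzk1* stretch. They are shown 5′ to 3′ on the strand of the gene.
Slc34a1, chr13:55399398-55399647, plus strand: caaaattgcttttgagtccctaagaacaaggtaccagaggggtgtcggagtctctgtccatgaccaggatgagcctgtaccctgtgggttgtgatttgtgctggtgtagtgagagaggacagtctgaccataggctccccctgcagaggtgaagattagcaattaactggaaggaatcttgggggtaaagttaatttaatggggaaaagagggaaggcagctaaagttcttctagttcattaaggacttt
Pdzk1, chr3:96829815-96830064, plus strand: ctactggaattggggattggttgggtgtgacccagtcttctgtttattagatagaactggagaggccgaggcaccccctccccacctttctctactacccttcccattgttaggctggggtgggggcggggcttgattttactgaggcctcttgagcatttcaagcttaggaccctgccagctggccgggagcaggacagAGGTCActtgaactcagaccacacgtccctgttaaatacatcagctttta

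*Slc34a3* (ENSMUSG00000006469.13, chromosome 2, 25228898 to 25234364, minus strand) encodes Npt2c, the other brush-border cotransporter, whose loss in people causes hereditary hypophosphatemic rickets with hypercalciuria. Its level was 76.0, 85.1, 76.4 and 98.6 CPM in controls 1 to 4 and 55.5, 46.9, 65.2 and 48.0 CPM in mutants 1 to 4. Every mutant lay below every control, those without Y-linked reads included. *Slc34a3* was the only member whose CPM did not overlap between the 2 groups of 4, a pattern found as lower in 2.39% and as higher in 1.65% of the 14326 genes tested. SIK mutants differed from controls by a log2 fold change of −0.64 (SE 0.129, 95% interval −0.93 to −0.35), a change of −35.9%, with an edgeR p of 0.000647 and an FDR of 0.331. DESeq2 gave an FDR of 0.00699 over the same 8 kidneys, where it called 0.3% of genes as lower.

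In the Y+ kidneys the difference in *Slc34a3* was much the same, at −0.57 (SE 0.143, 95% interval −0.89 to −0.24), with an edgeR p of 0.00351 and an FDR of 0.237. DESeq2 gave FDRs of 0.0428 there and 0.0492 with the Y-linked covariate. Per length the groups did overlap, at 45.9, 53.2, 54.9 and 78.2 TPM in controls 1 to 4 and 40.9, 39.9, 48.9 and 35.1 TPM in mutants 1 to 4, because mutant 3 exceeded control 1. The effective length assigned to the gene varied by 13.0% between kidneys, from 1351 to 1526 bases, so CPM and TPM weigh its transcripts differently. With an offset for effective length the log2 fold change was −0.59. The *Slc34a3* window held AGGTCA at 33 bases and, on the opposite strand, at 6 bases before the RefSeq start, inside the first exon of a longer GENCODE transcript. Both sites are shown on the strand of the gene with 8 bases on each side, the match in capitals.
Slc34a3, chr2:25234254-25234275, minus strand: cacatagcAGGTCAtgtgcgca
Slc34a3, chr2:25234227-25234248, minus strand: cagatcttTGACCTgcagctgt

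*Slc34a2* (ENSMUSG00000029188.14, chromosome 5, 53038081 to 53071664) encodes Npt2b, the intestinal and lung cotransporter. It was at 4.26, 3.46, 3.43 and 4.64 CPM in controls 1 to 4 and at 7.68, 7.58, 4.46 and 4.14 CPM in mutants 1 to 4, resting on 35 to 87 counts per kidney. Mutants 1 and 2 stood above all controls, and mutants 3 and 4 lay within the control range. This gave a log2 fold change of 0.60 (SE 0.249, 95% interval 0.04 to 1.15), with an edgeR p of 0.0387 and an FDR of 0.768, and 0.64 with a p of 0.0812 within the Y+ kidneys. Without mutant 1 or without mutant 2 the value was 0.45 or 0.46, with unadjusted edgeR p of 0.116 and 0.117. The p was also above 0.05 without control 1, 2 or 3 (0.0522, 0.0871 and 0.0880).

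Counted over the set, 0 of the 10 genes passed an edgeR FDR of 0.05 over the 8 kidneys, where 0% of all tested genes did. At an unadjusted edgeR p under 0.05, 1 was lower (*Slc34a3*) and 1 higher (*Slc34a2*), against 3.59% and 2.76% of the 14326 genes tested, and 911 genes or 6.36% in both directions. With DESeq2, 1 of the 10 passed an FDR of 0.05 (*Slc34a3*), as did 67 genes in all or 0.468%. Of the 10, 0 passed an edgeR FDR of 0.05 within the 6 Y+ kidneys, where 0.143% of genes did. There, 3 were lower at an unadjusted edgeR p under 0.05 (*Slc34a1*, *Slc34a3* and *Pdzk1*) against 4.74% of 14719 genes, and 0 were higher against 6.4%. In CPM 4 members lay lower without overlap there, the same 3 and *Kl*, against 11.5% of all tested genes. In TPM *Slc34a3* and *Kl* overlapped there. The median log2 fold change of the 10 was −0.01 over the 8 kidneys and −0.10 within the Y+ kidneys, beside −0.0038 and 0.01 for all tested genes.

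**Figure D2:**
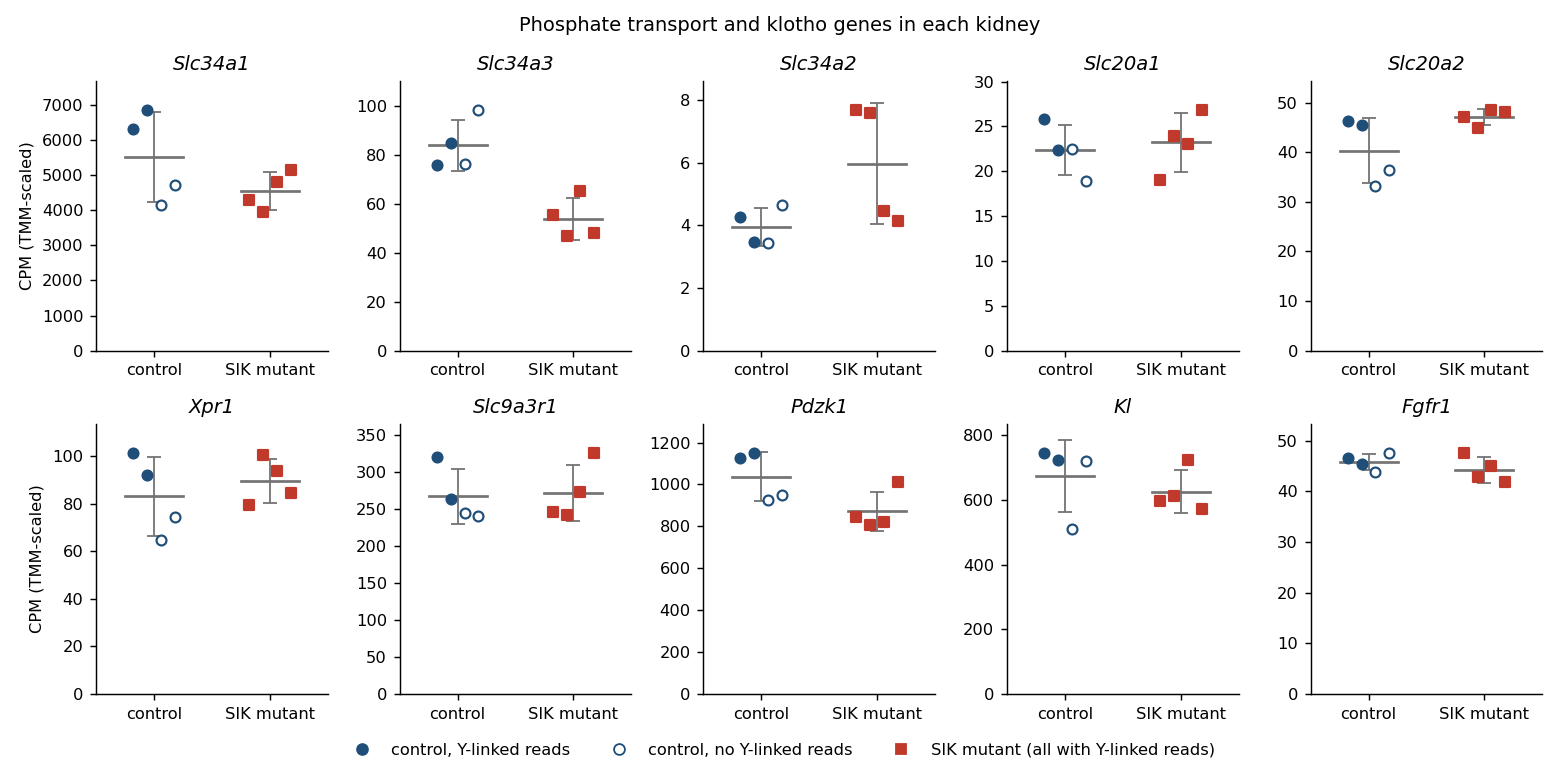
CPM of each gene in the 4 controls (circles, open for the 2 without Y-linked reads) and the 4 SIK mutants (squares), with the group mean as a line and the SD as an error bar, each axis starting at 0. *Slc34a3* is the single gene whose groups do not overlap, and controls 3 and 4 sit with the mutants for *Slc34a1*.

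Ratios within a kidney were then taken, since whole kidneys can differ in how much proximal tubule they hold. The log2 ratio of *Slc34a3* to *Slc34a1* in TPM was −5.93, −5.89, −5.42 and −5.03 in controls 1 to 4 and −5.84, −5.81, −5.78 and −6.17 in mutants 1 to 4. Controls 3 and 4 had the highest ratios, and the groups overlapped. The difference of group means was −0.33, with a two-sided exact permutation p of 0.286 over the 70 assignments, and was −0.15 without control 4. Within the Y+ kidneys it was 0.01 (exact p 0.8), so the sign did not hold.

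Relative to the mean log2 TPM of 8 pan-proximal markers (*Lrp2*, *Cubn*, *Hnf4a*, *Slc4a4*, *Gatm*, *Miox*, *Aqp1* and *Slc27a2*), *Slc34a1* was at 3.70, 3.73, 3.11 and 3.25 in controls 1 to 4 and at 3.30, 3.08, 3.27 and 3.46 in mutants 1 to 4. The groups overlapped, with a difference of −0.17 (exact p 0.343). Within the Y+ kidneys the difference was −0.44 with no overlap, where the smallest exact p that 2 against 4 allows is 0.133. *Slc34a3* relative to the same markers was at −2.24, −2.16, −2.31 and −1.78 in controls 1 to 4 and at −2.53, −2.73, −2.51 and −2.71 in mutants 1 to 4. All mutants were below all controls, and the difference of −0.50 had an exact permutation p of 0.0286, the smallest that 4 against 4 can give, and 0.0857 after Benjamini-Hochberg adjustment over the 3 ratios. For the Y+ kidneys it was −0.42, again with an exact p of 0.133.

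The choice of markers mattered. The S1 markers *Slc5a2* (the glucose cotransporter SGLT2), *Slc6a19* (a neutral amino acid carrier) and *Slc5a12* (a lactate carrier) had log2 fold changes of −0.67, −0.48 and −0.11 over the 8 kidneys. *Slc5a2* was at 454.5 to 555.2 CPM in controls and 315.4 to 320.8 CPM in mutants, with an edgeR FDR of 0.0697. Relative to these 3 markers alone, a choice made after the values were seen, *Slc34a3* differed by −0.13 (exact p 0.457) and *Slc34a1* by 0.20 (exact p 0.371), with overlap in both. Relative to 10 markers of S1, S2 and S3 together, *Slc34a1* differed by −0.47 with no overlap (exact p 0.0286) and *Slc34a3* by −0.80 with overlap (exact p 0.0857). The S3 markers in that list summed to 657.2 and 571.0 CPM in controls 3 and 4 and to 1295 to 2077 CPM in the other 6 kidneys. *Slc34a3* was thus below every control relative to markers of the whole proximal tubule, and not detectably lower relative to S1 markers.

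**Figure D3:**
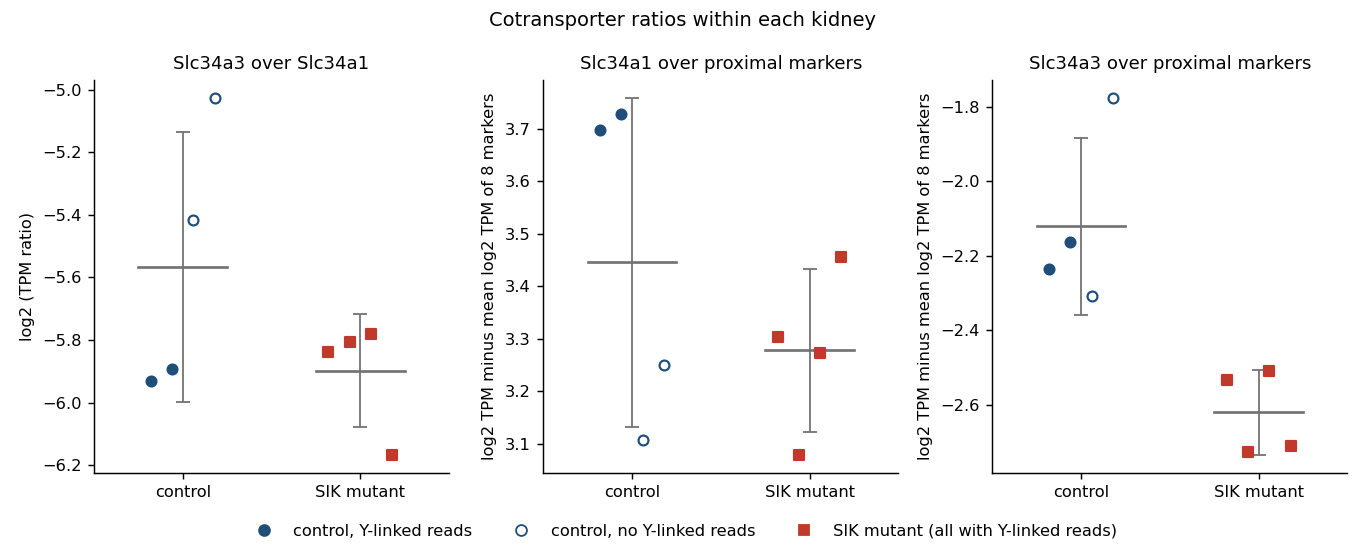
Log2 ratio of *Slc34a3* to *Slc34a1* in TPM and the level of each relative to 8 pan-proximal markers, in log2 units, for the 4 controls (circles, open without Y-linked reads) and the 4 SIK mutants (squares), with mean and SD. The groups separate only in the right panel, where controls lie at −2.31 to −1.78 and mutants at −2.73 to −2.51.

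*Pdzk1* (ENSMUSG00000038298.14, chromosome 3, 96829284 to 96870926) encodes a scaffold with several PDZ domains that binds Npt2a at the brush border. It was at 1129, 1149.7, 924 and 949 CPM in controls 1 to 4 and at 845, 806, 823 and 1012 CPM in mutants 1 to 4. Mutants 1 to 3 were below all controls, and mutant 4 lay between the pairs of controls. Fitted over the 8 kidneys, it had a log2 fold change of −0.25 (SE 0.121, 95% interval −0.52 to 0.02), with an edgeR p of 0.0648 and an FDR of 0.794. Of the Y+ kidneys every mutant was below both controls, at −0.38 (SE 0.115, 95% interval −0.64 to −0.12), with an edgeR p of 0.0102 and an FDR of 0.313. DESeq2 gave FDRs of 0.0923 there and 0.0672 with the Y-linked covariate. Per length the 2 groups of 4 did not overlap, at 469.5 to 505.4 TPM in controls and 422.8 to 459.4 TPM in mutants, as for 0.517% of all tested genes. *Gpr89*, at up to 371.7 CPM, overlaps *Pdzk1* by 2646 bases on the other strand, and since the use of strand in counting is not given in the sources used here, reads of the shared bases cannot be assigned with certainty.

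*Slc9a3r1* (ENSMUSG00000020733.3, chromosome 11, 115163341 to 115181181) encodes NHERF1, the scaffold whose phosphorylation releases Npt2a under PTH. It was at 320.4, 263, 244 and 239.8 CPM in controls 1 to 4 and at 245, 242, 273 and 325 CPM in mutants 1 to 4. The 2 ranges lay almost on top of each other. The log2 fold change was 0.02 (SE 0.133, 95% interval −0.27 to 0.32) over the 8 kidneys and −0.10 (95% interval −0.42 to 0.23) within the Y+ kidneys. A difference was therefore not detectable.

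The ubiquitous cotransporters are housekeeping phosphate importers of the SLC20 family, of which Slc20a2 also reaches the proximal brush border. *Slc20a1* (ENSMUSG00000027397.14, chromosome 2, 129198764 to 129211616) was at 25.8, 22.3, 22.5 and 18.9 CPM in controls 1 to 4 and at 19.0, 24.0, 23.1 and 26.8 CPM in mutants 1 to 4. The groups overlapped throughout. The log2 fold change was 0.05 (95% interval −0.24 to 0.35; edgeR p 0.687) and −0.04 within the Y+ kidneys (95% interval −0.37 to 0.29; edgeR p 0.780). *Slc20a2* (ENSMUSG00000037656.9, chromosome 8, 22476788 to 22569612) was at 46.4, 45.5, 33.1 and 36.3 CPM in controls 1 to 4 and at 47.0, 44.9, 48.5 and 48.1 CPM in mutants 1 to 4. Controls 1 and 2 matched the mutants, and controls 3 and 4 were lower. The log2 fold change was 0.23 (SE 0.116, 95% interval −0.03 to 0.49; edgeR p 0.0820) over the 8 kidneys and 0.05 (95% interval −0.15 to 0.25; edgeR p 0.610) within the Y+ kidneys. On the TPM scale the 2 groups of 4 did not overlap, at 10.8 to 13.5 TPM in controls and 14.2 to 17.4 TPM in mutants, which 4.59% of all tested genes shared, while the effective length of the gene varied by 12.8% between kidneys.

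*Xpr1* (ENSMUSG00000026469.14, chromosome 1, 155275701 to 155417415) encodes the exporter through which phosphate leaves cells. It was at 101, 92.0, 64.7 and 74.6 CPM in controls 1 to 4 and at 79.4, 101, 93.8 and 84.6 CPM in mutants 1 to 4. The lowest levels were again those of controls 3 and 4. The log2 fold change was 0.11 (95% interval −0.22 to 0.43; edgeR p 0.471) over the 8 kidneys and −0.10 (95% interval −0.36 to 0.16; edgeR p 0.404) within the Y+ kidneys. For *Slc20a1*, *Xpr1* and *Slc9a3r1* the sign thus turned when controls 3 and 4 were left out.

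*Kl* (ENSMUSG00000058488.7, chromosome 5, 150952607 to 150993817) encodes klotho, which is made mainly in the distal tubule and joins FGF receptors to form the receptor of FGF23. It was at 745, 725, 509.7 and 721 CPM in controls 1 to 4 and at 597, 612, 724 and 572 CPM in mutants 1 to 4. Control 3 was the lowest kidney of all, and mutant 3 lay with the other controls. The log2 fold change was −0.11 (SE 0.141, 95% interval −0.42 to 0.21; edgeR p 0.461) over the 8 kidneys. Within the Y+ kidneys all mutants were below both controls in CPM, though mutant 3 and control 2 were at 724 and 725 CPM. The log2 fold change of *Kl* there was −0.22 (95% interval −0.48 to 0.04; edgeR p 0.0901). In TPM the groups overlapped there, at 138.4 and 140.9 in controls 1 and 2 and 135.1, 143.1, 164.9 and 115.3 in mutants 1 to 4. *Fgfr1* (ENSMUSG00000031565.18, chromosome 8, 25513654 to 25575718), the main FGF receptor to pair with klotho, was at 46.6, 45.4, 43.8 and 47.5 CPM in controls 1 to 4 and at 47.6, 42.8, 45.0 and 41.9 CPM in mutants 1 to 4. In CPM it varied least of the 10 genes, with a coefficient of variation of 4.74% over the 8 kidneys (8.63% in TPM, where *Pdzk1* and *Slc9a3r1* varied less), and its log2 fold change was −0.05 (95% interval −0.21 to 0.12; edgeR p 0.530). On the log2(TPM + 1) scale the differences in *Kl* and *Fgfr1* were 0.01 and 0.06, where the median of all tested genes was higher by 0.09 than in the edgeR fit.

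**Figure D4:**
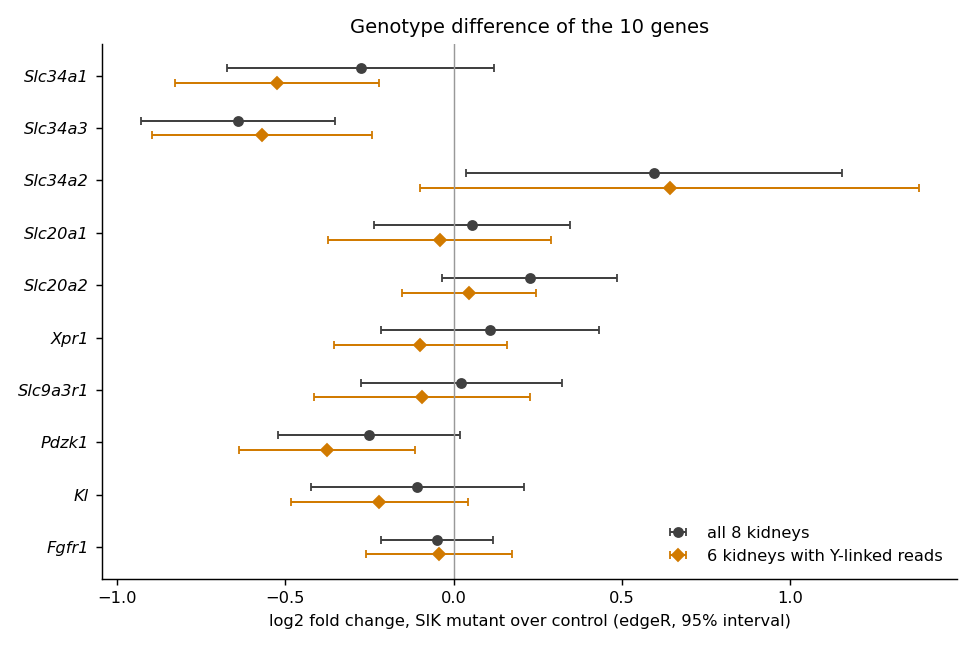
Log2 fold change of each gene in SIK mutants over controls with its 95% interval from edgeR, over all 8 kidneys (circles) and within the 6 Y+ kidneys (diamonds). The interval of *Slc34a3* excludes 0 in both comparisons, those of *Slc34a1* and *Pdzk1* only within the Y+ kidneys, and that of *Slc34a2* only over the 8; none of these passed an FDR of 0.05 over all genes.

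Genes whose level followed the cotransporters most closely were sought by Pearson's r of log2 CPM over the 8 kidneys among 9049 other protein-coding genes with a mean of at least 10 CPM. The r values describe these libraries, which share depth and composition, and the highest of so many are large by selection. For *Slc34a1* the 5 highest were *Atp6v1b2*, a subunit of the vacuolar proton pump (r = 0.976), *Pfn3* (0.976), *Cuta* (0.975), *Ormdl2* (0.970) and *Tmem115* (0.964). *Pfn3* overlaps *Slc34a1* by 545 bases on the other strand, so its reads and those of *Slc34a1* cannot be fully separated. *Atp6v1b2* was likewise highest in controls 1 and 2, at 401.0 and 406.0 CPM, and lay at 304.9 to 344.4 CPM in the other 6 kidneys. For *Slc34a3* the 5 were *Cited2*, a transcriptional co-regulator (0.973), *Pts*, an enzyme of tetrahydrobiopterin synthesis (0.966), *Spink1*, a trypsin inhibitor (0.959), *Defb1*, a defensin of the urinary tract (0.955), and *Trpm6*, the magnesium channel of the distal convoluted tubule (0.946). *Defb1* was at 211.7 to 326.3 CPM in controls and 120.4 to 165.8 CPM in mutants. Since *Slc34a3* itself separated the groups, genes chosen for likeness to it tend to do so by selection.

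Other genes of the pathway were taken from a list of 50, of which 42 passed the filter on low counts. Over the 8 kidneys 0 of the 42 passed an edgeR FDR of 0.05, and 1 was lower and 3 were higher at an unadjusted p under 0.05, against 3.59% and 2.76% of all tested genes. In the Y+ kidneys 0 passed, with 3 lower and 5 higher, against 4.74% and 6.4%. By DESeq2 *Dusp6* passed over the 8 kidneys, but had an FDR of 0.177 both within the Y+ kidneys and with the Y-linked covariate. *Pth1r* passed with DESeq2 and the covariate at an FDR of 0.0422, but had 0.0794 within the Y+ kidneys and 0.999 over the 8. The median log2 fold change of the list was 0.05 and 0.09. *Fgf23*, *Pth* and *Mepe* had 0 counts in all kidneys, which allows up to 0.263 to 0.304 CPM. Bone and the parathyroid gland are their usual sources.

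Of the 9 genes listed as FGF signalling readouts, not all of them specific to it, 0 passed an edgeR FDR of 0.05 over the 8 kidneys. Of the 9, 3 were higher at an unadjusted edgeR p under 0.05, against 2.76% of all tested genes. In CPM 1 was higher without overlap, against 1.65%. The fitted value was above 0 for 8 of 9, beside 7049 of 14326 genes tested, with a median log2 fold change of 0.41. Without mutant 1 the median was 0.20, with 7 of 9 above 0. Of the 8 above 0, *Frs2*, *Egr1* and *Sgk1* were at 0.09, 0.60 and 0.23, with edgeR p of 0.373, 0.292 and 0.499. *Spry4* and *Etv5* were at 0.41 and 0.51, with edgeR p of 0.108 and 0.0709. *Spry1* was below 0, at −0.12 with an edgeR p of 0.638. Within the Y+ kidneys the fitted value was above 0 for 9 of 9, beside 7614 of 14719, with a median of 0.50. There 3 were higher at an unadjusted edgeR p under 0.05, against 6.4% of all tested genes. *Dusp6*, which encodes a phosphatase that FGF signalling induces against ERK, was at 26.3, 33.3, 25.2 and 29.4 CPM in controls 1 to 4 and at 48.9, 47.0, 44.2 and 32.6 CPM in mutants 1 to 4. Mutants 1 to 3 were above every control, and mutant 4 just under control 2. Its log2 fold change was 0.60 (SE 0.142) with an edgeR p of 0.00199 and an FDR of 0.434, and DESeq2 gave an FDR of 0.0423. Within the Y+ kidneys the value was 0.55 with an edgeR FDR of 0.347. *Etv4*, an ETS transcription factor downstream of FGF receptors, did not overlap in CPM, at 0.812 to 1.84 in controls and 2.21 to 3.53 in mutants. It rested on 8 to 40 counts (log2 fold change 1.0, SE 0.290, edgeR FDR 0.572). In TPM *Etv4* overlapped, while *Dusp6* and *Etv5* were higher without overlap, as were 4.59% of all tested genes. *Spry2*, a feedback inhibitor of receptor tyrosine kinases, was at 7.61 to 9.89 CPM in controls and 8.52 to 13.1 CPM in mutants, with overlap (0.38, SE 0.160, edgeR FDR 0.768). The 3 stromal markers summed to 94.6 to 210.4 CPM in controls and 111.5 to 265.8 CPM in mutants. In controls 1 and 2 the sum was 94.6 and 108.5 CPM, just below the lowest mutant. Within the Y+ kidneys only *Pdgfra* of the 3 was higher without overlap, while *Pdgfrb* and *Col1a1* overlapped. The adipocyte markers were all higher there without overlap. The part of either marker list in these values was not tested.

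**Figure D5:**
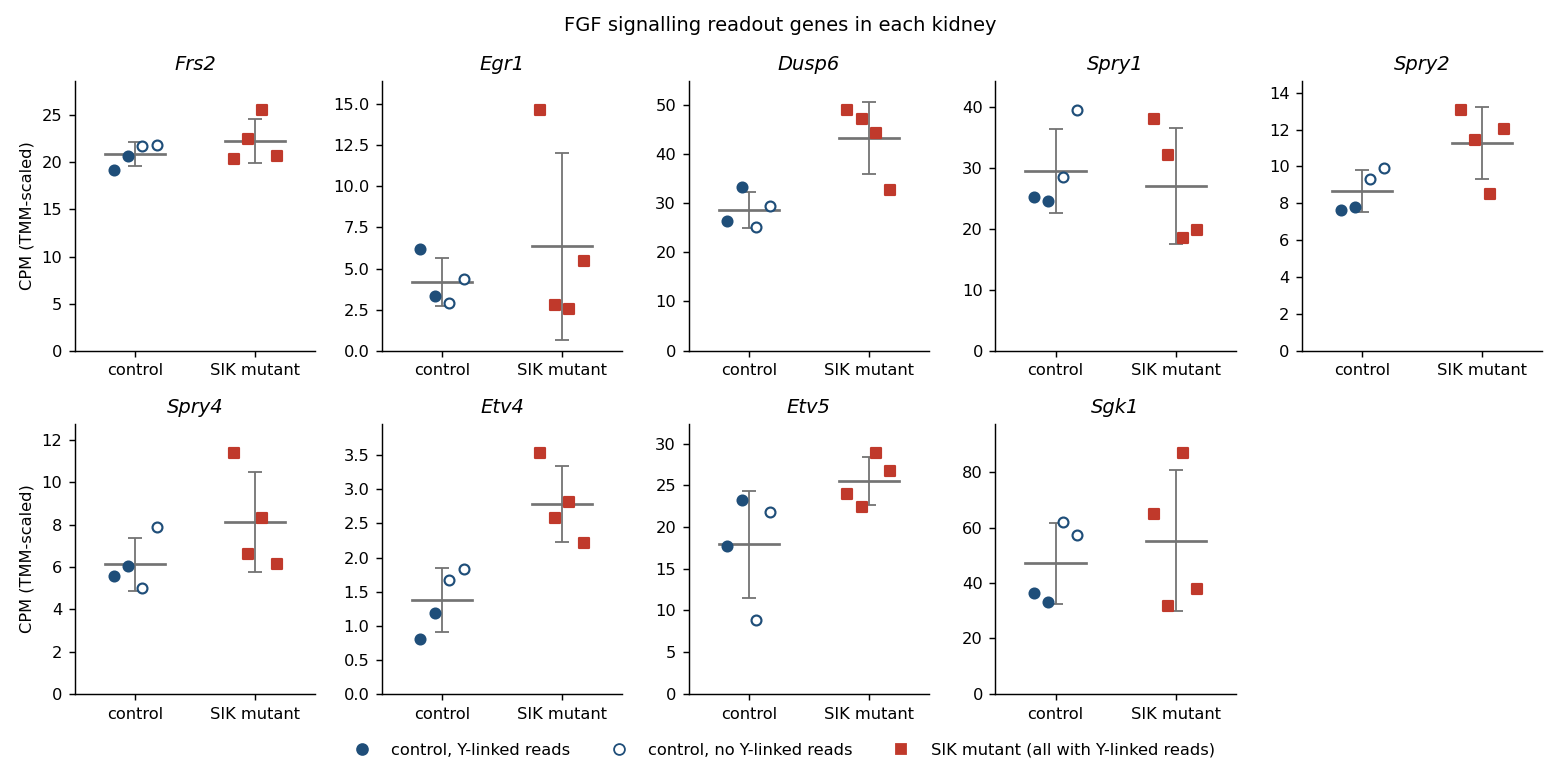
CPM of 9 genes listed as FGF signalling readouts in the 4 controls (circles, open without Y-linked reads) and the 4 SIK mutants (squares), with mean and SD, each axis starting at 0. In CPM only *Etv4* separates the groups, and 3 of 4 mutants lie above all controls for *Dusp6*. In TPM *Etv4* overlaps, while *Dusp6* and *Etv5* separate.

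Of the 5 receptor genes tested, 4 had lower fitted values in mutants over the 8 kidneys, beside 7277 of 14326 genes tested. Only 1 was lower at an unadjusted edgeR p under 0.05, against 3.59% of all tested genes. That gene, *Fgfr3*, an FGF receptor, was at 37.5 to 48.2 CPM in controls and 33.3 to 35.5 CPM in mutants, without overlap (log2 fold change −0.31, SE 0.102, edgeR FDR 0.702), but its difference within the Y+ kidneys was −0.13 with an edgeR p of 0.189. *Pth1r*, the PTH receptor, followed the pattern of *Slc34a1*. It was at 707, 649, 435 and 491 CPM in controls 1 to 4 and at 510.2, 516, 557 and 554 CPM in mutants 1 to 4, a log2 fold change of −0.09 over the 8 kidneys and of −0.33 (SE 0.093, edgeR p 0.00641, FDR 0.284) within the Y+ kidneys. *Slc17a1* and *Slc17a3*, organic anion and phosphate carriers of the proximal tubule, were lowest in controls 3 and 4, at 258.8 to 316.3 CPM, and were lower in mutants within the Y+ kidneys (−0.34 and −0.35, edgeR FDR 0.438 and 0.414). *Bace1*, one of the proteases that cut klotho from the membrane, was at 28.7 and 32.3 CPM in the controls with Y-linked reads and 38.4 to 41.9 CPM in mutants, a log2 fold change of 0.43 (edgeR FDR 0.200), but controls 3 and 4 were at 42.2 and 40.9 CPM. *Sfrp4*, a secreted phosphaturic factor, was at no more than 2.14 CPM in any kidney. It was at 0.101 and 0.790 CPM in controls 1 and 2 and at 0.969 to 2.14 CPM in mutants. Within the Y+ kidneys its log2 fold change was 1.87 (edgeR p 0.0195, FDR 0.360), but controls 3 and 4 were at 2.03 and 1.40 CPM.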

How the data were processed

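The authors quantified each whole-kidney library, sequenced on a BGISEQ500, with tools that the submitters' notes list as FastQC, STAR 2.7.2b, RSEM 1.3.0 and DESeq2 on mm10, and deposited 1 gene table per kidney without pooling. Each table gives expected counts, which the authors estimated per gene with RSEM and left without normalisation. It also gives TPM, which the authors scaled for effective length and library total. Effective lengths, also deposited, served as an offset and to describe genes. The deposited posterior SD of the counts was 0 for all 10 genes.

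Expected counts were rounded and tested in edgeR 4.0.16 (R 4.3.3) by its quasi-likelihood method, with TMM and filterByExpr, and Benjamini-Hochberg adjustment over all 14326 genes tested (14719 within the 6 kidneys with Y-linked reads, called Y+). A call was an FDR under 0.05. SE is the log2 fold change divided by the root of F, and 95% intervals use its t distribution. Kidneys with Y-linked reads had at least 10 counts of each of 4 Y-linked genes. Ratios were tested with two-sided exact permutation tests. Alternatives were RLE, DESeq2 1.42.0, limma-trend 3.58.1 on log2(TPM + 1) and log2(TPM + 0.1), other filters, an effective-length offset, a replicate block, a Y-linked covariate and each kidney left out. The fits were tested on simulated data. Within groups, the chi-square per degree of freedom was 9.06 to 49.5, so no library was a duplicate.

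The members, lists, tests and the split by Y-linked reads were chosen with earlier results of these data known. Named genes were all members, the targeted genes, the FGF signalling readouts and the 5 genes most like *Slc34a1* and *Slc34a3*. Other pathway genes were named at an unadjusted edgeR p under 0.05 in either comparison, or with 0 counts in all kidneys. Listed cell type markers, Y-linked genes, *Xist* and genes overlapping a member were also named. Molecular identifiers are not named in the sources used here, so floors cover counting error only. The p-values measure the spread between the sampled mice.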

Additional observations from a re-analysis of the deposited data

Results flagged for a closer look

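For each of the 10 genes and 3 ratios, both genotypes were examined for a kidney far from the other 3 of its group, and 2 of 26 groups held such a kidney, where chance gives about 1 in 20, or 1.3. Control 3 had 509.7 CPM of *Kl*, and the remaining controls had 720.5 to 745 CPM, so the gap took up 0.895 of the range of the group. Mutant 4 had a log2 ratio of *Slc34a3* to *Slc34a1* of −6.17, and the remaining mutants had −5.84 to −5.78, a gap of 0.856. That kidney had the lowest *Slc34a3* TPM of the 8 (35.1) and the highest *Slc34a1* CPM of the mutants (5141).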

How the results depend on the processing

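All 20 alternatives to the gene fit left *Slc34a1*, *Slc34a3* and *Pdzk1* lower and *Slc34a2* and *Slc20a2* higher in mutants, at −0.54 to −0.14, −0.74 to −0.47, −0.39 to −0.15, 0.39 to 0.73 and 0.03 to 0.39 on the log2 scale. With DESeq2 1 of the 10 genes passed an FDR of 0.05 over the 8 kidneys (*Slc34a3*, −0.63), and 2 passed with the Y-linked covariate (*Slc34a1* −0.53, *Slc34a3* −0.58) and within the Y+ kidneys (−0.53 and −0.57), against 0 in edgeR. The sign turned for *Slc20a1*, *Xpr1* and *Slc9a3r1* with the Y-linked covariate (−0.046, −0.12 and −0.10), within the Y+ kidneys (−0.042, −0.10 and −0.10), with DESeq2 and the covariate (−0.041, −0.12 and −0.10) and with DESeq2 within the Y+ kidneys (−0.045, −0.10 and −0.10). It turned for *Kl* (0.012 and 0.012) and *Fgfr1* (0.059 and 0.062) with limma on log2(TPM + 1) and log2(TPM + 0.1), where the median of all genes rose by 0.09 and 0.11 and the share of genes lower was 29.3% and 29.1%, against 50.8%. Leaving out each kidney gave −0.023 to 0.14 for *Slc20a1* and −0.076 to 0.12 for *Slc9a3r1*, and 1 to 3 genes at an unadjusted p under 0.05. The ratio of *Slc34a3* to *Slc34a1* was 0.015 within the Y+ kidneys. Relative to proximal markers, *Slc34a1* differed by −0.47 with segment markers and 0.20 with S1 markers, and *Slc34a3* by −0.42 within the Y+ kidneys, −0.80 with segment markers, −0.13 with S1 markers and −0.56 to −0.38 with a kidney left out, where 0.0571 is the smallest exact p possible. The cause of these shifts was not tested, except that fewer kidneys limit the exact p.

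Replicate numbers did not pair the kidneys, with correlations of −0.19, 0.04, 0.06 and −0.34 between deviations of same-numbered kidneys. With the number as a block, 0 genes passed the FDR, 657 against 911 had an unadjusted p under 0.05, 1 of the 10 genes did (*Slc34a3*, −0.64), while *Slc34a2* had an unadjusted edgeR p of 0.0725, and *Slc34a1* was at −0.25. Over all genes, an FDR of 0.05 was passed by 0 in edgeR, 9 without a filter, 17 with the covariate, 21 within the Y+ kidneys, 67, 199 and 188 in DESeq2 (8 kidneys, covariate, Y+ kidneys), 4 and 5 in limma, and 0 to 1 with a kidney left out. *Slc34a2*, at 35 to 87 counts, was the member most limited by depth.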
